A study of Mus musculus with 12 samples.

Results

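Angiopoietin-like proteins and the lipases they act on were followed in mouse liver RNA-Seq as 6 genes, *Angptl4*, *Angptl8*, *Angptl6*, *Lpl*, *Gpihbp1*, and *Lipc*, taken by symbol from a table of 22456 genes. All 6 were found, and all 6 passed the filter on low values (a mean of at least 0.5 RPKM, the reads of a gene scaled for its length and for the mapped reads of the library), which 11507 genes passed in all. They were chosen by name after their RPKM in the 4 groups was known from earlier results of these data, so their transcript levels are described here without a test. The livers came from male BALB/cByJ mice on chow, either *Lpin1*-/- mice, which carry the fatty liver dystrophy (fld) mutation and lack lipin 1 in every tissue, or *Lpin1*+/+ littermates. Fasted mice were housed singly without food for 16 hours, at a lower temperature than during rearing. Refed mice were given food for 5 hours after the same fast, so a refed liver was also taken at a later hour. The study gives the age of these mice as a range of months, not per liver. Each of the 4 groups, formed by the 2 genotypes and the 2 feeding states, held 3 livers, 1 library each, and the libraries of a group are called replicates 1 to 3 after their labels. Lipin 1 is a phosphatidate phosphatase of glycerolipid synthesis that also acts with transcription factors in the nucleus, and the study asked how its loss changes the liver's switch between fasting and feeding.

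Lipoprotein lipase (*Lpl*) releases fatty acids from triglyceride-rich lipoproteins on the capillary wall. It is made in the parenchymal cells of fat, heart, and muscle, and in adult liver it is low and found largely outside the hepatocytes. GPIHBP1 is the endothelial protein that carries the enzyme across the capillary wall and holds it there, and hepatic lipase (*Lipc*) is a hepatocyte enzyme that works on smaller remnants and high-density lipoprotein. ANGPTL4 inhibits LPL and is known as a fasting-induced factor, whereas ANGPTL8 is induced by food and insulin and helps to hold LPL back in oxidative tissues after a meal. ANGPTL6 is a secreted family member with no established part in lipase inhibition.

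The targeted gene was read first. *Lpin1* lay between 0.0057 and 0.0597 RPKM in the 6 *Lpin1*-/- libraries and between 0.726 and 21.96 RPKM in the 6 *Lpin1*+/+ libraries, so genotypes did not overlap. The fasted *Lpin1*+/+ libraries were uneven, at 21.96, 0.726, and 1.76 RPKM in replicates 1 to 3, against 2.92, 0.784, and 2.76 RPKM in the refed ones. Depth recovered from the steps in the deposited values was 93.5 to 124.9 M mapped reads per library. The lists of marker genes identified the tissue as liver in all libraries (5 hepatocyte markers summed to 39182 to 80866 RPKM), while the 5 adipocyte markers summed to at most 0.321 RPKM and the 5 skeletal muscle markers to at most 1.71 RPKM. Replicate 2 of refed *Lpin1*+/+ stood apart in its group, with 930.3 RPKM in the sum of 10 macrophage markers against 180.0 and 108.6 in the others. Replicate 1 of fasted *Lpin1*-/- stood apart likewise, with 999.7 RPKM in that sum and 451.5 RPKM in 5 cholangiocyte markers, against 57.0 and 24.9 in its group. *Spp1* alone made up 430.4 RPKM of that cholangiocyte sum. Each of the other cholangiocyte markers was at most 10.8 RPKM in this library, though also at its highest in the group. In whole liver, fewer cells of a type and less RNA per cell cannot be told apart.

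The *Lipc* exon described below under exon inclusion, which did not pass after adjustment, is shown here before the values. *Lipc* lies at chr9:70798128-70952226 (GRCm38, minus strand), and 9 exons make up its full coding transcript. Between exon 2 (chr9:70823373-70823563) and exon 3 (chr9:70820360-70820542) of that transcript the deposited counts place a skipped exon of 48 bases at chr9:70820851-70820898. GENCODE M21 holds 47 of those bases as the coding last exon of an incomplete transcript. The lines below give the last 24 bases of exon 2 in lower case, followed in capitals by the 47 annotated bases of the additional exon, or by the first 24 bases of exon 3 where it is skipped.
Lipc exon included: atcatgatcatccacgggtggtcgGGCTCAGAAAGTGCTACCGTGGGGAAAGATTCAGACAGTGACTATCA
Lipc exon skipped: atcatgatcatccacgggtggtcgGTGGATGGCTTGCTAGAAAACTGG
Exon 2 ends after 276 coding bases, a whole number of codons, and the annotated bases held 0 stop codons in that frame. A length of 48 bases keeps the frame into exon 3.

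*Angptl4* (chr17:33773750-33781830, minus strand) was lower in refed than in fasted liver in both genotypes, and higher in fasted *Lpin1*-/- than in fasted *Lpin1*+/+ liver. In fasted *Lpin1*+/+ liver its level was 115.0, 107.0, and 97.7 RPKM in replicates 1 to 3, and in refed *Lpin1*+/+ liver it was 41.1, 13.2, and 59.3 RPKM. Refed *Lpin1*+/+ libraries all lay below the fasted ones, with the lowest value in the library of high macrophage markers. The log2 difference on the scale of log2(RPKM + 1), refed minus fasted, was -1.70 with an SE of 0.45. Without replicate 2 of the refed group it was -1.09.

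In *Lpin1*-/- liver, *Angptl4* was higher in the fasted state than in *Lpin1*+/+ liver and was likewise lower with food. Fasted *Lpin1*-/- libraries held 225, 360, and 258 RPKM, and refed *Lpin1*-/- libraries held 96.1, 73.3, and 44.4 RPKM. Every fasted *Lpin1*-/- library exceeded every fasted *Lpin1*+/+ library, whereas the refed groups overlapped. The log2 difference between feeding states was -2.01 (SE 0.45), close in size to that in *Lpin1*+/+ liver, with -0.30 (SE 0.64) between the 2 differences. The log2 difference of *Lpin1*-/- from *Lpin1*+/+ was 1.37 (SE 0.45) in fasted and 1.06 (SE 0.45) in refed liver, where it was 0.45 without replicate 2 of refed *Lpin1*+/+. Group means ran from 281 ± 70.3 RPKM (SD, n = 3) in fasted *Lpin1*-/- through 107 ± 8.66 in fasted *Lpin1*+/+ and 71.2 ± 25.9 in refed *Lpin1*-/- to 37.9 ± 23.2 in refed *Lpin1*+/+. In this order only the last pair of neighbours overlapped.

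The opposite pattern was seen for *Angptl8* (chr9:21835510-21837347, plus strand), which was low in fasted and high in refed liver in both genotypes. Fasted *Lpin1*+/+ libraries held 11.6, 55.2, and 47.0 RPKM, and refed *Lpin1*+/+ libraries held 203, 194, and 317 RPKM. Fasted *Lpin1*-/- libraries held 20.2, 12.9, and 9.503 RPKM, and refed *Lpin1*-/- libraries held 113, 471, and 798 RPKM. Fasted and refed groups did not overlap in either genotype, but the *Lpin1*-/- and *Lpin1*+/+ groups overlapped within each feeding state. The refed *Lpin1*-/- group was the most spread out, with 7.08-fold between its lowest and highest library.

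The log2 difference of *Angptl8*, refed minus fasted, was 2.85 (SE 0.69) in *Lpin1*+/+ and 4.59 (SE 0.69) in *Lpin1*-/- liver. The feeding difference was larger in *Lpin1*-/- by 1.74 (SE 0.97), less than 2 SE. *Lpin1*-/- differed from *Lpin1*+/+ by -1.15 (SE 0.69) in fasted and 0.59 (SE 0.69) in refed liver, and each rested on single libraries. Leaving out replicate 1 of the fasted *Lpin1*+/+ group gave -1.83, and leaving out its replicate 2 gave -0.75. In refed liver the value became 1.40, 0.37, or -0.01 when replicate 1, 2, or 3 of the *Lpin1*-/- group was dropped. The gene lies wholly inside *Dock6* (chr9:21799860-21852635) on the opposite strand, and the strand setting of the counting is not given in the sources used here. *Dock6* was at 0.933 to 1.67 RPKM in fasted and 3.21 to 3.79 RPKM in refed *Lpin1*+/+ liver, and at 1.13 to 1.80 RPKM in the 6 *Lpin1*-/- libraries, so at the RPKM of *Angptl8* it was the lesser signal in every library.

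Expressed within a library, the ratio of *Angptl8* to *Angptl4* RPKM reversed with food. It lay between 0.0359 and 0.516 in the 6 fasted libraries and between 1.17 and 18.0 in the 6 refed libraries.

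The level of *Angptl6* (chr9:20873808-20879727, minus strand) was low throughout, between 3.74 and 10.5 RPKM. In *Lpin1*+/+ liver the fasted libraries (6.40, 5.51, and 8.86 RPKM) and the refed libraries (10.5, 3.74, and 7.53 RPKM) overlapped, with a log2 difference of -0.01 (SE 0.29). In *Lpin1*-/- liver the fasted libraries (10.1, 8.92, and 7.82 RPKM) all lay above the refed ones (4.18, 3.91, and 3.94 RPKM), with a log2 difference of -0.98 (SE 0.29). The difference between these 2 values was -0.97 (SE 0.41). Between genotypes the groups overlapped in both states, with log2 differences of 0.34 in fasted and -0.63 in refed liver (SE 0.29 each), and with 1 library left out they ran from 0.21 to 0.51 and from -0.98 to -0.34. At its 3′ end the gene overlaps *A230050P20Rik* on the other strand, which was at 9.32 to 13.4 RPKM in fasted and 21.95 to 44.25 RPKM in refed *Lpin1*-/- liver. That gene moved in the opposite direction to *Angptl6*, and the part of shared reads in either value was not tested.

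**Figure D1:**
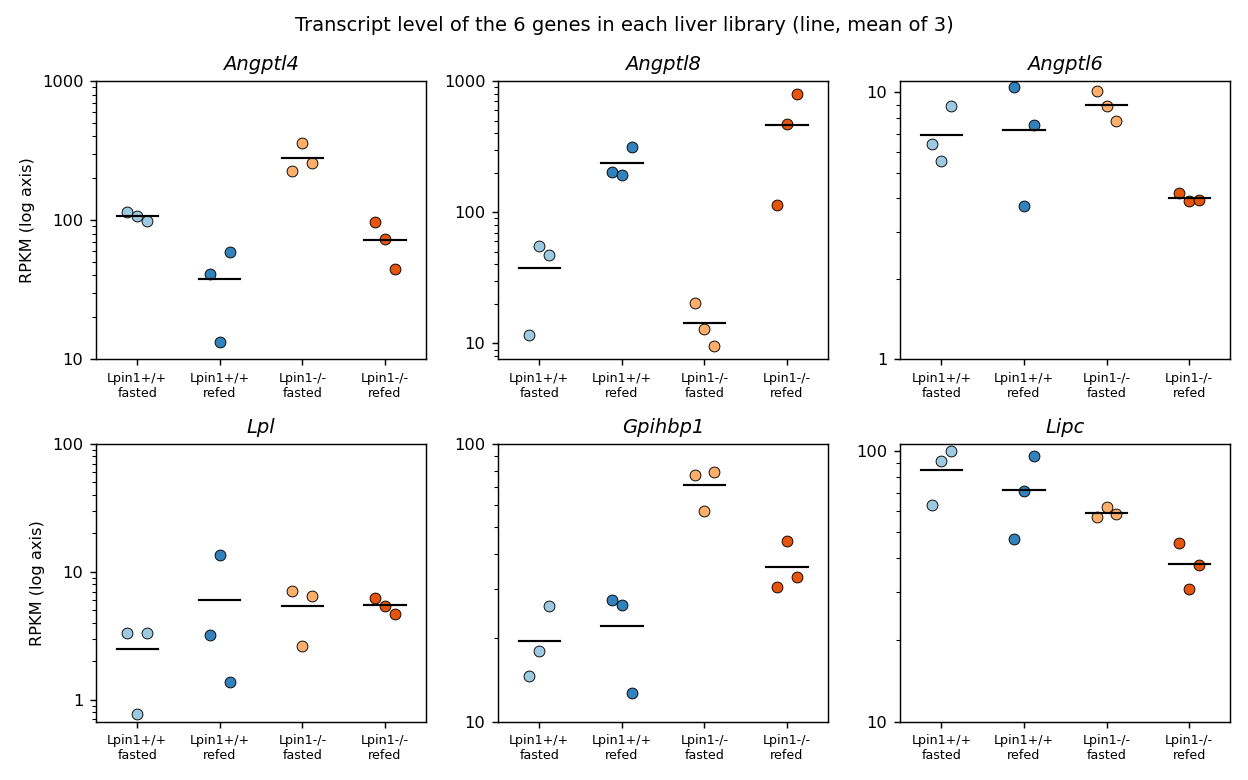
Level of the 6 genes in each liver library, in RPKM on log axes, for 4 groups of 3 libraries (points) with the group mean (line). *Angptl4* was highest in fasted *Lpin1*-/- liver (225 to 360 RPKM), *Angptl8* was high in both refed groups (113 to 798 RPKM), and *Gpihbp1* was highest in fasted *Lpin1*-/- liver (57.4 to 79.3 RPKM).

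Among the lipases and their carrier, *Gpihbp1* (chr15:75596628-75599481, plus strand) was higher in *Lpin1*-/- liver in both feeding states, with the wider gap when fasted. In fasted liver it was at 14.6, 17.9, and 26.1 RPKM in *Lpin1*+/+ and at 77.1, 57.4, and 79.3 RPKM in *Lpin1*-/- libraries. In refed liver it was at 27.3, 26.2, and 12.7 RPKM in *Lpin1*+/+ and at 30.4, 44.6, and 33.1 RPKM in *Lpin1*-/- libraries. Every *Lpin1*-/- library lay above every *Lpin1*+/+ library of its feeding state. The log2 difference was 1.84 (SE 0.30) in fasted and 0.74 (SE 0.30) in refed liver, and the latter was 0.40 without replicate 3 of refed *Lpin1*+/+.

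Feeding separated the *Gpihbp1* levels in *Lpin1*-/- liver but not in *Lpin1*+/+ liver. Refed minus fasted, the log2 difference was -0.97 (SE 0.30) in *Lpin1*-/-, with no overlap, and 0.13 (SE 0.30) in *Lpin1*+/+, with overlap. The difference between these 2 values was -1.10 (SE 0.43). Group means fell in the order fasted *Lpin1*-/- (71.3 ± 12.0 RPKM, SD, n = 3), refed *Lpin1*-/- (36.0 ± 7.56), refed *Lpin1*+/+ (22.1 ± 8.13), and fasted *Lpin1*+/+ (19.5 ± 5.96), and only the last pair overlapped.

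Since GPIHBP1 is an endothelial protein, 8 endothelial markers were summed in the same libraries. When fasted, the sum was 33.4 to 71.6 RPKM in *Lpin1*+/+ and 76.7 to 94.1 in *Lpin1*-/- liver. When refed, it was 38.6 to 77.6 and 54.5 to 71.1 RPKM, and no marker was at 0. In fasted liver 7 of the 8 markers were higher in *Lpin1*-/- than in *Lpin1*+/+ and 2 passed the test, *Lyve1* (1.77, limma adjusted p = 0.0208) and *Egfl7* (1.15, limma adjusted p = 0.0272). In refed liver 4 of the 8 were higher and 0 passed. Divided by the endothelial sum, *Gpihbp1* was 0.256 to 0.537 in fasted *Lpin1*+/+ and 0.650 to 1.01 in fasted *Lpin1*-/- liver. It was 0.330 to 0.358 in refed *Lpin1*+/+ and 0.523 to 0.628 in refed *Lpin1*-/- liver. The genotypes thus did not overlap in this ratio either. The largest terms of the sum in every library were *Clec4g* (14.5 to 34.1 RPKM) and *Egfl7* (up to 34.8 RPKM). Each of the other markers was at most 9.67 RPKM. Whether the ratio sets aside a difference in endothelial cells was not tested. A share of all genes without overlap in such a ratio was not computed.

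*Lpl* (chr8:68880491-68907448, plus strand) had the lowest mean of the 6 genes over the 12 libraries, although in refed *Lpin1*-/- liver each library held less *Angptl6* than *Lpl*. Fasted *Lpin1*+/+ libraries held 3.32, 0.776, and 3.32 RPKM, and refed *Lpin1*+/+ libraries held 3.20, 13.5, and 1.38 RPKM. Fasted *Lpin1*-/- libraries held 7.12, 2.62, and 6.49 RPKM, and refed *Lpin1*-/- libraries held 6.27, 5.38, and 4.71 RPKM. The highest value, 13.5 RPKM, was in the refed *Lpin1*+/+ library that also had the most macrophage transcripts of its group.

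In none of the 4 comparisons were the *Lpl* groups apart. The log2 differences were 0.71 and 0.09 (SE 0.58) for refed minus fasted in *Lpin1*+/+ and *Lpin1*-/- liver, and 0.91 and 0.29 (SE 0.58) for *Lpin1*-/- minus *Lpin1*+/+ in fasted and refed liver. Without replicate 2 of refed *Lpin1*+/+ the feeding difference in *Lpin1*+/+ was -0.02 and the genotype difference in refed liver was 1.02. Without replicate 3 of that group the latter was -0.28, and without replicate 2 of fasted *Lpin1*+/+ the genotype difference in fasted liver was 0.48. The 10 macrophage markers, none of them at 0, summed to 192 to 395 RPKM in *Lpin1*+/+ and 367 to 999.7 RPKM in *Lpin1*-/- livers when fasted, and to 109 to 930.3 and 117 to 272 RPKM when refed. Divided by that sum, *Lpl* was 0.00404 to 0.0126 in fasted and 0.0127 to 0.0178 in refed *Lpin1*+/+ liver. The ratio was 0.00516 to 0.0177 in fasted and 0.0198 to 0.0536 in refed *Lpin1*-/- liver. Unlike *Lpl* itself, the ratio did not overlap between feeding states in either genotype or between genotypes in refed liver, by a narrow gap in *Lpin1*+/+ liver. In *Lpin1*-/- liver the mean of *Lpl* was 5.41 RPKM fasted and 5.45 RPKM refed. The ratio there differed with the marker sum, and a change of *Lpl* per macrophage was not tested. For this ratio, too, the share of all genes without overlap was not computed. The *Lpl* levels rest on 113 to 2261 reads per library, and 113 was the lowest count of any of the 6 genes.

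**Figure D2:**
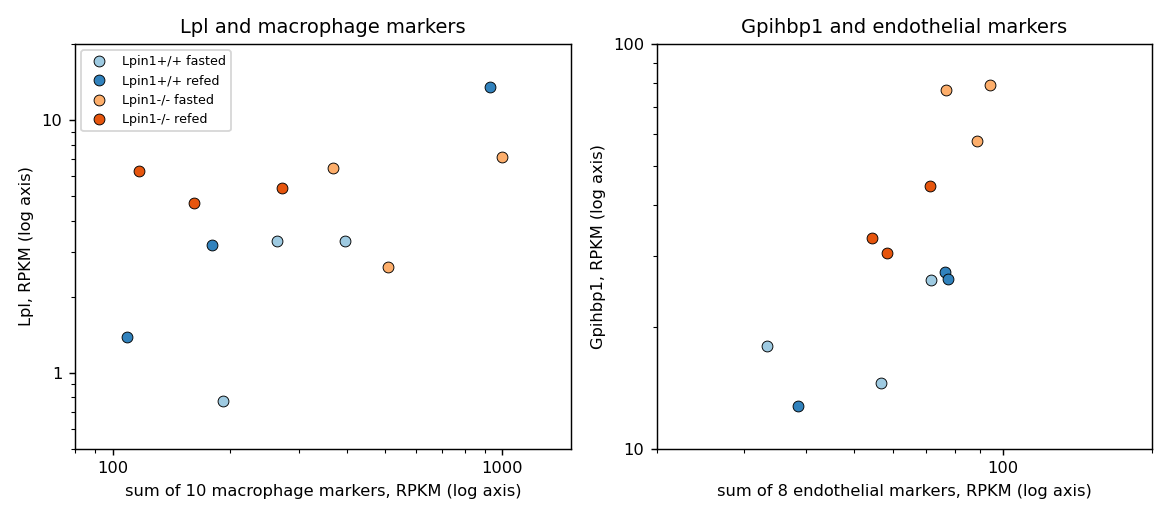
*Lpl* against the sum of 10 macrophage markers (left) and *Gpihbp1* against the sum of 8 endothelial markers (right), in RPKM on log axes, with 1 point per library. The refed *Lpin1*+/+ library with 13.5 RPKM of *Lpl* had a macrophage sum of 930.3 RPKM, and the *Lpin1*-/- libraries lay above *Lpin1*+/+ libraries of like endothelial sum.

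Hepatic lipase differed in the other direction from *Gpihbp1*. *Lipc* was at 62.8, 91.8, and 99.9 RPKM in fasted *Lpin1*+/+ and at 56.8, 62.1, and 58.1 RPKM in fasted *Lpin1*-/- libraries. It was at 47.4, 71.2, and 95.4 RPKM in refed *Lpin1*+/+ and at 45.8, 31.0, and 37.8 RPKM in refed *Lpin1*-/- libraries. All *Lpin1*-/- libraries lay below all *Lpin1*+/+ libraries of the same feeding state, by a small gap at the edge of each group (62.1 against 62.8 RPKM in fasted and 45.8 against 47.4 RPKM in refed liver). The log2 difference was -0.49 (SE 0.26) in fasted and -0.85 (SE 0.26) in refed liver, and the fasted value was -0.29 with the libraries rescaled to a common centre.

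With food, *Lipc* was lower in *Lpin1*-/- liver without overlap (-0.63, SE 0.26), and in *Lpin1*+/+ liver the groups overlapped (-0.28, SE 0.26). With the libraries rescaled, the former value was -0.99. *Lipc* was 5.28 to 118 times *Lpl* in RPKM over the 12 libraries, so on a per-length scale it was the more abundant lipase transcript in each of them.

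The 6 genes can be set against the background of all genes. From fasted to refed *Lpin1*+/+ liver, 1 gene was lower (*Angptl4*) and 1 higher (*Angptl8*) without overlap, where 3.46% and 14.6% of all tested genes were. In *Lpin1*-/- liver, 4 were lower and 1 higher, against 9.26% and 37.5%. Between genotypes, 2 were higher and 1 lower in fasted *Lpin1*-/- liver (10.7% and 22.2% of all genes) and 1 was higher and 1 lower in refed *Lpin1*-/- liver (14.8% and 19.1%). Because the genes were chosen with these comparisons in view, the counts are not evidence of an excess. The median of all genes itself differed, by 0.19 and 0.25 for refed minus fasted in *Lpin1*+/+ and *Lpin1*-/- liver and by -0.14 and -0.07 for *Lpin1*-/- minus *Lpin1*+/+ in fasted and refed liver. Relative to it, *Gpihbp1* differed by 1.98 and *Lipc* by -0.35 between genotypes in fasted liver.

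**Figure D3:**
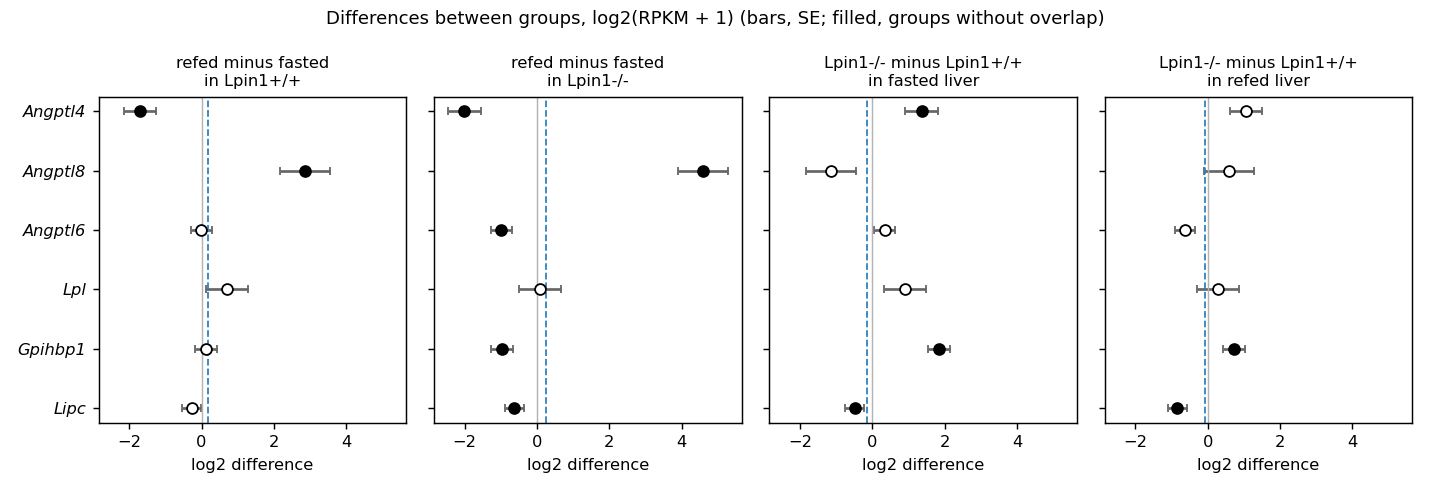
Log2 differences of the 6 genes in the 4 comparisons on the log2(RPKM + 1) scale, with SE (bars), groups without overlap (filled points), and the median of all genes (dashed line). *Angptl4* and *Angptl8* lay on opposite sides of 0 for feeding in both genotypes, and *Gpihbp1* and *Lipc* lay on opposite sides for genotype in both feeding states.

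The other genes of the pathway were counted by lists, drawn up in 8 groups of 81 genes, 74 of which passed the filter on low values. They were tested with limma over all genes. From fasted to refed *Lpin1*+/+ liver 4 were higher and 0 lower (1.52% and 0.2% of all genes), and in *Lpin1*-/- liver 12 were higher and 3 lower (17.8% and 2.92%). In *Lpin1*-/- against *Lpin1*+/+ liver, 7 were higher and 14 lower in the fasted state (5.63% and 13.2%), and 5 were higher and 6 lower in the refed state (2.6% and 4.07%). The genotype comparisons bear most on lipase handling.

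Among 9 tested genes of lipase maturation and anchoring, 1 was lower and 1 higher in *Lpin1*-/- liver in both feeding states. *Lmf1*, the endoplasmic reticulum factor that LPL and hepatic lipase need to fold, was at 20.6 to 22.8 RPKM in fasted *Lpin1*+/+ and 11.3 to 13.7 RPKM in fasted *Lpin1*-/- liver. It was at 23.8 to 30.5 and 12.6 to 13.3 RPKM in the refed groups. The log2 difference was -0.75 (SE 0.15, limma adjusted p = 0.00683) in fasted and -1.01 (SE 0.15, limma adjusted p = 0.00423) in refed liver. Both calls held when any 1 library was left out, but with the libraries rescaled the fasted one was -0.56 with a limma adjusted p of 0.0575. *Sdc1*, the syndecan through which liver takes up remnants, was higher in *Lpin1*-/- by 0.97 (limma adjusted p = 0.00564) in fasted and 0.71 (limma adjusted p = 0.0469) in refed liver. The refed call of *Sdc1* was lost in 9 of the 12 fits that each left out 1 library, with a limma adjusted p of up to 0.162, and also in the fit of the 6 refed libraries with the replicate number as a block (limma adjusted p = 0.109). The median of this list was -0.36 in fasted and -0.10 in refed liver, against -0.14 and -0.07 over all genes.

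Of 6 other lipases, 1 was higher and 2 were lower in fasted *Lpin1*-/- liver, and 1 was higher in refed *Lpin1*-/- liver. *Pnpla2*, the adipose triglyceride lipase that starts the breakdown of stored fat, was higher in *Lpin1*-/- by 2.30 (limma adjusted p = 0.00197) in fasted and 2.06 (limma adjusted p = 0.00926) in refed liver. *Lipa*, the acid lipase of lysosomes, was lower in fasted *Lpin1*-/- liver (26.98 to 33.59 RPKM against 66.0 to 97.8 RPKM, limma adjusted p = 0.000663). *Mgll*, which completes the breakdown of monoacylglycerol, fell by 2.41 (limma adjusted p = 0.00534) there. Endothelial lipase (*Lipg*) was low and did not pass, at -0.68 (limma adjusted p = 0.176) in fasted and -1.05 (limma adjusted p = 0.0827) in refed liver.

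Of the 7 apolipoproteins that act as lipase cofactors or inhibitors, 0 passed between genotypes in either state. In refed liver all 7 were lower in *Lpin1*-/-, 4 of them without overlap (19.1% of all genes). The list median there was -0.73 against -0.07 over all genes. In fasted liver 3 were higher and 4 lower, with a list median of -0.002 against -0.14 over all genes. *Apoc2*, the activator of LPL, differed by 0.19 (limma adjusted p = 0.856) in fasted and -1.17 (limma adjusted p = 0.29) in refed liver, and *Apoc3*, an LPL inhibitor, by 0.08 (limma adjusted p = 0.901) and -0.02 (limma adjusted p = 0.986). *Apoa5*, which relieves inhibition of LPL by ANGPTL8, was lower with food in *Lpin1*-/- liver by 0.74 on the log2 scale (limma adjusted p = 0.0491). That call was lost in 9 of the 12 fits that each left out 1 library, with a limma adjusted p of up to 0.169. Its genotype difference was -0.16 (limma adjusted p = 0.675) in fasted and -0.76 (limma adjusted p = 0.0836) in refed liver.

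The list of fasting targets of the nuclear receptor PPARα gave the setting for *Angptl4*, itself a known PPARα target. In fasted *Lpin1*-/- liver 6 of 13 were lower and 2 higher, with a list median of -1.55 against -0.14 over all genes. The lower ones included *Fgf21*, a fasting hormone (-3.90, limma adjusted p = 0.00155), *Vnn1*, a pantetheinase (-3.70, limma adjusted p = 0.00138), and *Ehhadh*, an enzyme of peroxisomal fatty acid oxidation (-2.04, limma adjusted p = 0.000854). The 2 higher ones were *Pdk4*, which restrains glucose oxidation (2.65, limma adjusted p = 0.000901), and *Plin5*, a lipid droplet protein (1.70, limma adjusted p = 0.00452). *Angptl4* differed by 1.37 in the direction of *Pdk4* and *Plin5*, not of the 6. *Ppara* itself differed by -0.93 (limma adjusted p = 0.136) in fasted and -0.47 (limma adjusted p = 0.532) in refed liver and did not pass. In refed *Lpin1*-/- liver 2 of the 13 were lower, *Vnn1* and *Ehhadh*, and 1 higher, *Plin5*.

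The list of insulin and feeding targets gave the setting for *Angptl8*. From fasted to refed liver 2 of 10 were higher in *Lpin1*+/+ and 5 of 10 in *Lpin1*-/-, with list medians of 0.48 and 1.04. *Thrsp*, a lipogenic factor, was higher by 2.68 (limma adjusted p = 0.045) in *Lpin1*+/+ liver. That call held in 2 of the 12 fits that each left out 1 library, with a limma adjusted p of up to 0.124. It was also lost with the libraries rescaled (limma adjusted p = 0.131). *Thrsp* did not follow food in *Lpin1*-/- liver (-0.09, limma adjusted p = 0.928), where it was already higher than in *Lpin1*+/+ liver when fasted, by 4.06 (limma adjusted p = 0.00133). In *Lpin1*-/- liver *Pklr* (2.63, limma adjusted p = 0.00214) and *Acaca* (2.16, limma adjusted p = 0.00146), enzymes of glycolysis and fatty acid synthesis, were higher. Whether the feeding response of these genes differed between genotypes was tested by the interaction, which 0 of the 10 passed. This count depended on the scaling. With the libraries rescaled, *Acaca* (1.79, limma adjusted p = 0.0305) and *Pklr* (2.49, limma adjusted p = 0.0414) passed the interaction.

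The feeding response of the bile acid receptor gene *Nr1h4* differed between genotypes by 2.04 in the interaction (SE 0.27, limma adjusted p = 0.00794), where 1.28% of all genes passed. It was at 16.5 to 20.8 RPKM in fasted and 55.3 to 86.1 RPKM in refed *Lpin1*-/- liver. Among 11 tested genes of remnant and fatty acid uptake, 3 were lower in refed *Lpin1*-/- than in refed *Lpin1*+/+ liver. *Fabp1*, the liver fatty acid binding protein, was lower there by 3.04 on the log2 scale (limma adjusted p = 0.0158). The call of *Fabp1* was lost in 4 of the 12 fits that each left out 1 library, with a limma adjusted p of up to 0.0652.

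**Figure D4:**
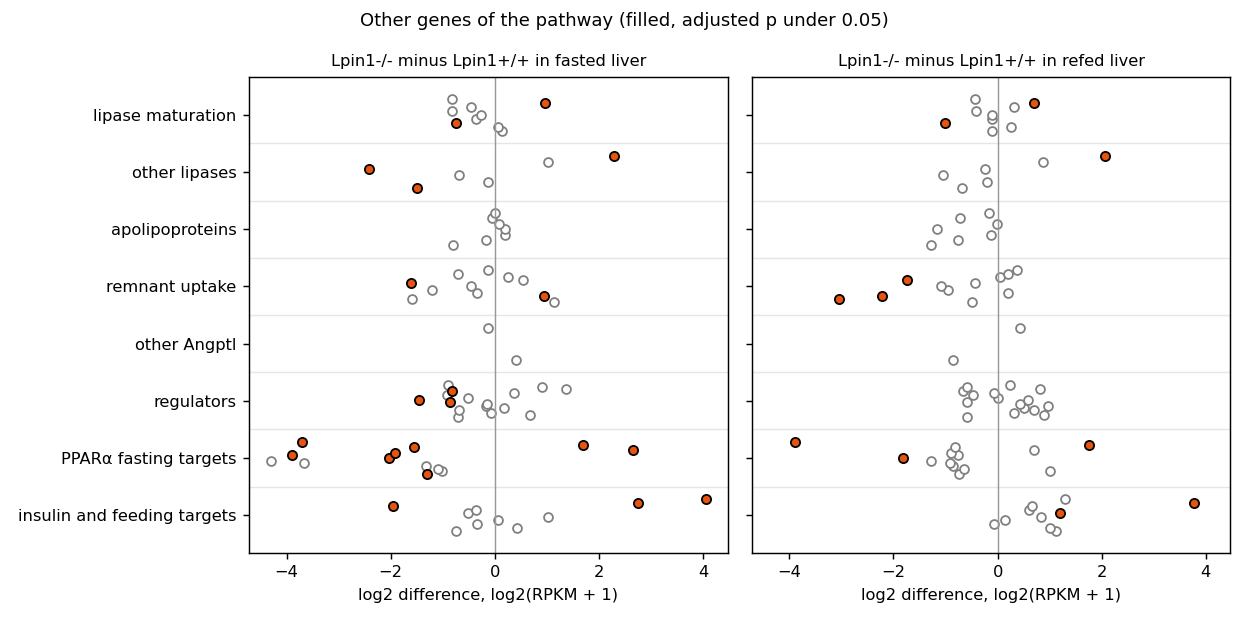
Log2 differences of *Lpin1*-/- from *Lpin1*+/+ liver for the tested genes of the 8 pathway lists, in fasted (left) and refed (right) liver, on the log2(RPKM + 1) scale. Each point is a gene and filled points passed the limma test (21 in fasted and 11 in refed liver); in the list of PPARα targets 6 filled points lie below 0 and 2 above in fasted liver.

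Genes whose level followed each of the 6 most closely were named by Pearson's r over the 12 libraries, as a description with no test, since the libraries share groups and depth. *Gja4* (r = 0.94), *Dpep1* (r = 0.93), and *Fabp4* (r = 0.93) were nearest to *Gpihbp1*. The group mean of *Fabp4* was 12.8 RPKM in *Lpin1*+/+ and 84.3 RPKM in *Lpin1*-/- livers when fasted, and 26.1 and 32.9 RPKM when refed, and that of *Gja4* was 1.94, 20.5, 2.33, and 5.84 RPKM in the same order. *Dirc2*, *Zfand6*, and *Gabarapl1* (r = 0.93, 0.93, and 0.92) were nearest to *Angptl4*, with *Gabarapl1* at a mean of 361, 606, 175, and 269 RPKM in that order. *Wdr12*, *Scnm1*, and *Tmx2* (r = 0.97, 0.96, and 0.96) were nearest to *Angptl8*. *Proc*, *Hyi*, and *Gamt* (r = 0.92, 0.90, and 0.87) were nearest to *Lipc*, all with their lowest mean in refed *Lpin1*-/- liver. *Pgm1*, *Slc6a8*, and *Adam17* (r = 0.94, 0.92, and 0.90) followed *Lpl*, and *Ttc39c*, *Dhx40*, and *Wfdc1* (r = 0.80, 0.77, and 0.77) followed *Angptl6*. Between the 6 genes themselves r was at most 0.53, for *Angptl4* and *Angptl6*, and as low as -0.76, for *Angptl4* and *Angptl8*.

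Exon inclusion was tested with limma over all skipped exon events, as the log2 ratio of inclusion to skipping reads. Where skipping is near 0 reads, this ratio also moves with the level of the gene, by which the genes were chosen, so such calls are not independent of the choice. The tables listed events in 5 of the 6 genes, and none in *Gpihbp1*. Between genotypes in fasted liver 5 of 32 tested events of these genes passed, where 11.3% of all events did, and in refed liver 0 of 22 passed (3 at an unadjusted p under 0.05), where 0.97% did. Between feeding states 0 of 10 passed in *Lpin1*+/+ liver (0 at an unadjusted p under 0.05), where 0% of all events did. In *Lpin1*-/- liver 1 of 10 passed, an *Angptl8* event, where 7.8% did. The share in fasted liver was near that of all events.

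The 5 events that passed in fasted liver were entries for 2 exons, and each turned on few reads. For the third of the 4 exons of *Angptl8* (chr9:21836843-21836952, 110 coding bases), skipping reads numbered 0 in each fasted *Lpin1*+/+ library and 6, 4, and 1 in the fasted *Lpin1*-/- libraries. Inclusion in those 3 was 97.6%, 97.1%, and 99.1%. Over the 3 *Lpin1*+/+ libraries the 0 skipping reads of 3412 allow a share of up to 0.0879% of the raw reads, counting error only, which is not on the scale of the inclusion percents, since those are divided by the length of each form. In refed *Lpin1*-/- liver the skipping reads were 0, 2, and 1, while inclusion reads numbered 3703, 15595, and 24261 against 632, 352, and 291 in the fasted state. Within the fasted state, the *Lpin1*+/+ library with 350 inclusion reads had 0 skipping reads, and the *Lpin1*-/- library with 352 had 4. How far the level of *Angptl8* entered the log2 ratio of this exon was not tested. Its calls for genotype in fasted liver and for feeding in *Lpin1*-/- liver rest on few reads and are not read as a change in splicing. Mean inclusion, which does not scale with the level, differed by -1.01 percentage points between genotypes within feeding state (exact two-sided permutation p = 0.09, adjusted p = 0.264 over 24 tests of events in these genes). That test averaged both feeding states. Mean inclusion was 100% in *Lpin1*+/+ and 97.93% in *Lpin1*-/- liver when fasted, and 99.94% and 99.99% when refed. It therefore cannot decide on the fasted difference, and over 24 tests 1 event alone could not have passed. Skipping of 110 bases does not keep the reading frame.

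For the fourth of the 7 exons of *Angptl4* (chr17:33778372-33778485, 114 coding bases), skipping reads were 0 in all fasted *Lpin1*+/+ libraries, where 0 of 9865 raw reads allow a share of up to 0.0304% of them. They were 24, 13, and 4 in the fasted *Lpin1*-/- libraries, with inclusion of 99.0%, 99.7%, and 99.9%. The log2 ratio differed by -3.15 (SE 0.90, limma adjusted p = 0.0396), while reads over the event were more numerous in *Lpin1*-/- liver (26001 against 9865). Nearly every transcript of both genes therefore held its exon in both genotypes. The calls of both genes were lost, at a count of 0, when any of 4 of the 6 libraries was left out. The junction left by each skipped exon is shown with the last 24 bases of the exon before it in lower case and the first 24 bases of the exon after it in capitals.
Angptl8 exon skipped: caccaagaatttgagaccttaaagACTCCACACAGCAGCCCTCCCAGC
Angptl4 exon skipped: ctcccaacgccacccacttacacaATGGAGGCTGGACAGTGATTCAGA

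The event with the most reads of its rarer form was the 48-base exon of *Lipc* whose sequence is given above. In the order in which the files list the libraries, it was included in 23.4%, 24.8%, and 26.7% of *Lipc* transcripts in fasted *Lpin1*+/+ and in 19.6%, 17.5%, and 20.4% in fasted *Lpin1*-/- liver. In refed liver inclusion was 28.9%, 26.2%, and 26.3% in *Lpin1*+/+ and 20.1%, 23.3%, and 23.2% in *Lpin1*-/- libraries. All *Lpin1*-/- libraries lay below all *Lpin1*+/+ libraries of the same feeding state. These shares rest on 122 to 486 inclusion and 284 to 798 skipping reads per library.

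In the limma fit the *Lipc* exon did not pass, with a log2 difference of -0.49 (SE 0.61, adjusted p = 0.647) in fasted and -0.39 (SE 0.49, adjusted p = 0.771) in refed liver. With weights from the precision of the counts, an alternative added after the data were seen, the limma adjusted p was 0.055 and 0.144. An exact two-sided permutation test of mean inclusion, with libraries exchanged between genotypes within each feeding state, gave a difference of -5.37 percentage points with p = 0.005, the smallest that its 400 arrangements can give. Over the 24 such tests of events in these genes, the adjusted p was 0.12 (exact permutation, Benjamini-Hochberg), which is the lowest that a single event at that smallest p can reach, so this test could not have passed for 1 event alone. For feeding within genotype it was 2.61 percentage points (exact permutation p = 0.03, adjusted p = 0.264).

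**Figure D5:**
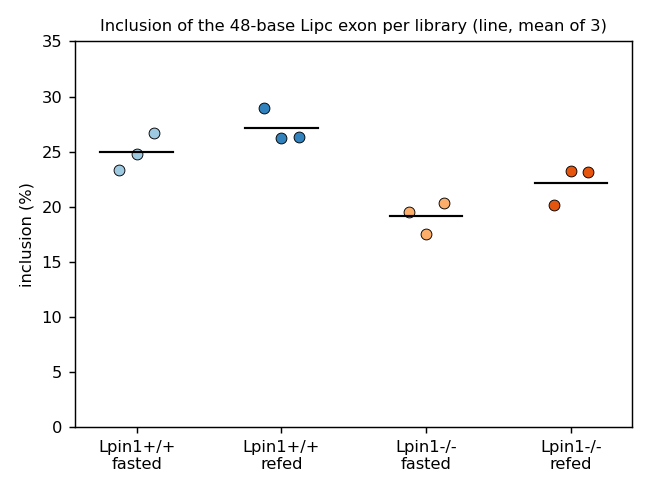
Inclusion of the 48-base *Lipc* exon in percent, per library (points) with the group mean (line), for the 4 groups of 3. The *Lpin1*-/- libraries lie between 17.5% and 23.3% and the *Lpin1*+/+ libraries between 23.4% and 28.9%.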

How the data were processed

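RNA-Seq was made by the authors from livers of 12 mice (4 groups of 3) with stranded TruSeq libraries and paired reads. Per the labels, the tools were HISAT2 2.0.5, HTSeq 0.6.0, and DESeq2 1.20.0, with GRCm38. The authors deposited RPKM per gene and library. Steps in the low RPKM values gave the mapped reads per library and, for the 6 genes, whole reads (within 0.01 of a read) for a length 7 to 13 bases above that of the longest coding transcript in 5 genes and, in *Gpihbp1*, 7 bases above the union of its coding bases (73 above the longest transcript). RPKM is therefore per kilobase of coding length, and whether reads in untranslated regions were counted is not given in the sources used here. At 93.5 to 124.9 M reads the spread between livers, not counting error, limits the precision of gene levels, and the p-values of genes measure that spread. Exon events with few skipping reads also carry counting error.

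For splicing, the authors deposited rMATS inclusion and skipping counts per library for skipped exon events as lists of numbers (the rMATS version is not given in the sources used here). The same tables hold the authors' own p-values, FDRs, and inclusion differences, which were not used. The lists carry no replicate numbers.

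The 6 genes and all gene lists were chosen with earlier results of these data known. After a filter at a mean RPKM of 0.5, values were taken to log2(RPKM + 1) and all 12 libraries entered a single limma model (version 3.58.1 under R 4.3.3) with a variance trend. Benjamini-Hochberg adjustment ran over 11507 genes and 0.05 was the threshold. An event needed 10 counts in each library. Its inclusion and skipping counts, after adding 0.5, were divided by the lengths of the forms, and limma compared the log2 of their quotient, adjusted over all events. Feeding comparisons used 28447 events present in both genotype tables. Named pathway genes were *Lmf1*, *Lipg*, *Apoc2*, *Apoc3*, *Apoa5*, *Ppara*, and, per comparison, the genes of largest difference among those passing without overlap, up to 3 each way; some genes under this rule are not reported here. Others in the text were chosen after their values were seen, as was the *Lipc* exon. For each of the 6 genes the 3 genes of highest Pearson's r were named. Deviations of same-numbered refed libraries from their group means correlated in each of 3 pairs (r 0.16 to 0.30). The labels state no pairing, and r was higher (0.39 to 0.74) between fasted *Lpin1*+/+ and refed *Lpin1*-/- libraries, which were not compared. Alternatives were another pseudocount, other filters, rescaled libraries, a replicate block, fits of 6 libraries, and leaving out each library. On simulated data for refed against fasted *Lpin1*-/- liver over 11507 genes, the fit recovered 86 of 100 genes changed by 2 and 32 of 100 changed by 1 on the log2 scale, with 3 false calls. For events in fasted liver it recovered 2994 of 4000 changed 8-fold, with 150 false calls among 69644. The changed events were drawn only from those in which inclusion and skipping reads both passed a minimum mean count. This recovery therefore does not cover events with skipping near 0 reads, such as the passing events of *Angptl8* and *Angptl4*. Promoter and protein sequences were not used here. Transcript sequences and positions are from GENCODE M21 (GRCm38). Python 3.11.15, pandas 2.3.3, numpy 2.4.6, and matplotlib 3.10.9 were used.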

Additional observations from a re-analysis of the deposited data

Results flagged for a closer look

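The feeding difference of *Nr1h4*, a pathway gene outside the 6, differed between genotypes by 2.04 in the limma interaction test (limma adjusted p = 0.00794). It was at 44.4 to 57.9 RPKM in fasted and 43.6 to 50.5 RPKM in refed *Lpin1*+/+ liver, against 16.5 to 20.8 and 55.3 to 86.1 RPKM in *Lpin1*-/- liver. The call held in all 12 fits that each left out 1 library, with a limma adjusted p of up to 0.0383, and with the libraries rescaled (1.90, limma adjusted p = 0.0129).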

How the results depend on the processing

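With 3 livers per group, 8 of the 30 log2 differences of the 6 genes (the interaction included) changed sign at some setting, and 4 of the 8 were differences of *Lpl*. Of the recomputed log2 differences of the 6 genes and counts of pathway genes and exon events passing, 649 stayed within 1 SD between libraries (differences) or within 1.5 times (counts) of the reported value and 28 moved. *Lpl* was not tested with a minimum mean of 5 RPKM. Pathway genes passing for feeding in *Lpin1*+/+ liver numbered 4, but 1 with no filter, 1 with rescaled libraries, 1 with the replicate block, 0 in the 6 libraries alone, and 1 to 4 with 1 library left out. For feeding in *Lpin1*-/- liver the 15 became 8 to 20, for genotype in fasted liver the 21 became 15 to 24, for genotype in refed liver the 11 became 7 to 14, and for the interaction the 3 became 6 with rescaled libraries and 2 to 5 with 1 library left out. The feeding difference of *Lipc* in *Lpin1*-/- liver was -0.99 with rescaled libraries. The 5 events passing in fasted liver became 3 with 1 added to each count, 3 with precision weights, and 0 to 5 with 1 library left out. The causes were not tested. Among the 4 comparisons, same-numbered libraries deviated alike in every pair only between the refed genotypes. The r of deviations was -0.47 to -0.23 between genotypes in fasted liver. It was -0.02 to 0.25 for feeding in *Lpin1*+/+ and -0.44 to -0.20 for feeding in *Lpin1*-/- liver. Between fasted *Lpin1*+/+ and refed *Lpin1*-/- liver, which share neither genotype nor feeding state, r was 0.39 to 0.74. Such an r therefore does not show that livers were paired. In the 6 refed libraries with the replicate block, chosen after the data were seen, 10 pathway genes passed and, of the named calls in refed liver, that of *Sdc1* was lost; the block over all 12 libraries changed no other count by over 1.5 times. For exon events no block was fitted, since the lists carry no replicate numbers. Rescaling brought the share of passing genes that were higher from 88.4% to 63.2% and 85.9% to 59.0% for feeding in *Lpin1*+/+ and *Lpin1*-/- liver, and from 29.9% to 47.0% and 39.0% to 50.1% for genotype in fasted and refed liver.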
